A study of Mus musculus with 13 samples.

Results

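Peg3, Usp29, Peg10, Sgce, Mest, Plagl1, Zdbf2, Impact, Nnat and Snrpn are mouse genes transcribed mainly from the copy inherited from the father. These 10 genes were taken from the table of 38377 gene identifiers by matching the listed symbols to Ensembl identifiers on GRCm38, and all 10 were found. They were followed through 13 bulk RNA-seq libraries in 6 groups. Female epiblast stem cells (EpiSC), a cell line type that models the epiblast after implantation, were sequenced with a heterozygous Xist deletion (EpiSC dXist, 2 libraries) or as wild type (EpiSC WT, 2 libraries). Female extraembryonic endoderm stem cells (XEN), which model the primitive endoderm lineage, were sequenced with the paternal Xist allele deleted and 20 uM 5-aza-2'-deoxycytidine added (XEN dXist Aza, 2 libraries), as wild type with the same drug (XEN WT Aza, 2 libraries), with the paternal deletion alone (XEN dXist, 3 libraries), or as untreated wild type (XEN WT, 2 libraries). The drug, called Aza here, is built into DNA in place of cytidine and traps DNA methyltransferases. The study asks what loss of Xist, the RNA that silences an X chromosome in female cells, does to expression in both cell types, and what Aza adds in XEN cells. How many clones stand behind each group, and how long the treatment lasted, is not stated in the labels.

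Imprinted genes carry DNA methylation that was set differently in egg and sperm, and this mark lets a single parental copy be transcribed. For most paternally expressed genes the maternal copy is methylated at a control region, and the mark is copied at each cell division by Dnmt1 with the help of factors such as Zfp57. Many of these genes act in growth, placenta and brain. The counts were not separated by parental allele, so no value below says from which copy the RNA came. In bulk samples, fewer cells of a type and less RNA per cell cannot be told apart.

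Peg3 (Ensembl ENSMUSG00000002265, chr7:6703892-6730431, minus strand), a Krüppel-type zinc finger protein, and Usp29 (ENSMUSG00000051527, chr7:6730578-6967219, plus strand), a member of the ubiquitin-specific protease family, start head to head, with 146 bases between the annotated genes. Sgce (ENSMUSG00000004631, chr6:4674350-4747207, minus strand), which encodes epsilon-sarcoglycan, and Peg10 (ENSMUSG00000092035, chr6:4747306-4760517, plus strand), a retrotransposon-derived gene needed for the mouse placenta, form the other head-to-head pair, with 98 bases between them. Mest (ENSMUSG00000051855, chr6:30723547-30748465) encodes a member of the alpha/beta hydrolase family, and Plagl1 (ENSMUSG00000019817, chr10:13060504-13131694) a zinc finger transcription factor that restrains cell growth. Zdbf2 (ENSMUSG00000027520, chr1:63273265-63314576) encodes a protein with a DBF4-type zinc finger, and Nnat (ENSMUSG00000067786, chr2:157560078-157562522) a small membrane proteolipid of neural and endocrine cells. Impact (ENSMUSG00000024423, chromosome 18, 12955852 to 12992950) encodes an inhibitor of the stress kinase Gcn2, and Snrpn (ENSMUSG00000102252, chr7:59982495-60140219, minus strand) the spliceosomal protein SmN.

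All 10 are annotated as protein coding, and the coordinates span the whole gene in GENCODE vM21 on GRCm38. No strand setting is recorded for the counting, so reads cannot be assigned where exons overlap. Of Mest's exon bases, 23.1% lie in exons of Copg2 on the opposite strand, and 14.3% of Usp29's lie in Zim3 on the opposite strand. For Snrpn, 27.3% of exon bases are shared with Gm38393 and 10% with Snurf on the same strand.

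Start regions are shown for 3 genes because Aza acts on methylation of the cytosine in CpG pairs: Peg3, whose window spans the start shared with Usp29, Plagl1, whose libraries did not overlap between Aza-treated and untreated XEN dXist, and Mest, whose libraries did not overlap between EpiSC dXist and EpiSC WT. In these comparisons 8 and 5 of the 10 members did not overlap, beside 42.2% and 42.7% of all genes, so this trait does not mark out Plagl1 or Mest. The sequences are RefSeq windows on GRCm38.p6 that run from 250 bases before to 50 bases after an annotated start, on the strand of the gene, with every CpG in capitals. The Peg3 window (chr7:6730370-6730669) covers the interval to Usp29 and held 13 CpG. The Plagl1 window (chr10:13090582-13090881) held 26 CpG and the Mest window (chr6:30737800-30738099) 17 CpG.
Peg3: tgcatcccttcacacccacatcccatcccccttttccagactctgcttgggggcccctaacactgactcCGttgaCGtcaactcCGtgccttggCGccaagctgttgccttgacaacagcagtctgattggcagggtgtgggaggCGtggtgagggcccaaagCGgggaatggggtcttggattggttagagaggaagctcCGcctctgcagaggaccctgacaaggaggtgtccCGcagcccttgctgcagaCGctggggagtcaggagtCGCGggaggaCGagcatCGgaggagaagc
Plagl1: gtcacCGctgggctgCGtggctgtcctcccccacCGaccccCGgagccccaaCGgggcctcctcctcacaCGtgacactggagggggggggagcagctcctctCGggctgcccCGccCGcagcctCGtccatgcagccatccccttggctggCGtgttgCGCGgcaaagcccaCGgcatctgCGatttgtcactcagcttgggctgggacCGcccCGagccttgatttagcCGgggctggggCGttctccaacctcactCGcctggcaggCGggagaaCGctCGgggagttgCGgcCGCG
Mest: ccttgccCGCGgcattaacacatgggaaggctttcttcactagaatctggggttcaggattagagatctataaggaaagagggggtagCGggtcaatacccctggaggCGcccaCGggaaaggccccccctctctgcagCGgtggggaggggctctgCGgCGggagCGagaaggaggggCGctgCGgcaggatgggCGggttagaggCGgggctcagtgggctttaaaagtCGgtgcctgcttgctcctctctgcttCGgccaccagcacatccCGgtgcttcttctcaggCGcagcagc
Across all 32851 RefSeq windows of this kind the median was 7 CpG. Of these windows 62.1% had fewer CpG than the Peg3 window, 83.1% fewer than the Plagl1 window and 68.6% fewer than the Mest window. Windows of 7 members were used, 13 windows in all. Any windows of Impact were left out, and none of Peg10 or Sgce was included. The motif count for the members therefore does not cover Impact, Peg10 or Sgce. The letters TGCCGC, the sequence that Zfp57 binds when methylated, or their reverse complement GCGGCA, occurred in 6 of these 13 windows, with overlapping windows of a gene counted separately, and in 3813 of all windows (11.6%). The Mest window printed above held 2 matches, the Plagl1 window 1 and the Peg3 window 0. Methylation was not measured in these libraries, and a match is only a description of the letters.

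Library totals ran between 5848454 and 35247432 counts, and 3 counts in a library were worth 0.0815 to 0.498 CPM (read counts scaled to library size with TMM factors). Xist, the deleted gene, stood at 0.276 to 0.435 CPM in EpiSC dXist, against 206 and 815 CPM in EpiSC WT, and at 1.16 to 4.79 CPM in XEN dXist, against 1550 and 1590 CPM in XEN WT. The library labelled XEN dXist Aza 2 held 242 CPM of Xist and library 1 of that group 14.6 CPM, against 1630 and 1210 CPM in XEN WT Aza. Both treated dXist libraries lay above untreated XEN dXist (log2 fold change 5.42, SE 1.01, edgeR adjusted p = 0.0614, called by DESeq2). The label names a deletion of the paternal allele, and from which allele this Xist RNA came was not measured. RNAs without long poly(A) tails (mt-Rnr1, mt-Rnr2, Rn7sk) took 10.4% to 13.5% of counts in both XEN WT Aza libraries, EpiSC dXist library 2 and EpiSC WT library 2, and 0.0152% to 0.279% in the other 9 libraries. The first 4 are called total-like and the other 9 polyA-like, split at 5%. Primitive endoderm markers summed to 45.1 to 102 CPM over the EpiSC libraries and to 11400 to 34300 CPM over the XEN libraries, and epiblast markers to 787 to 1090 CPM in EpiSC and 29.6 to 208 CPM in XEN, so both cell type labels were met. Dnmt3b alone gave 165 and 206 CPM of the epiblast sums in XEN WT.

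**Figure D1:**
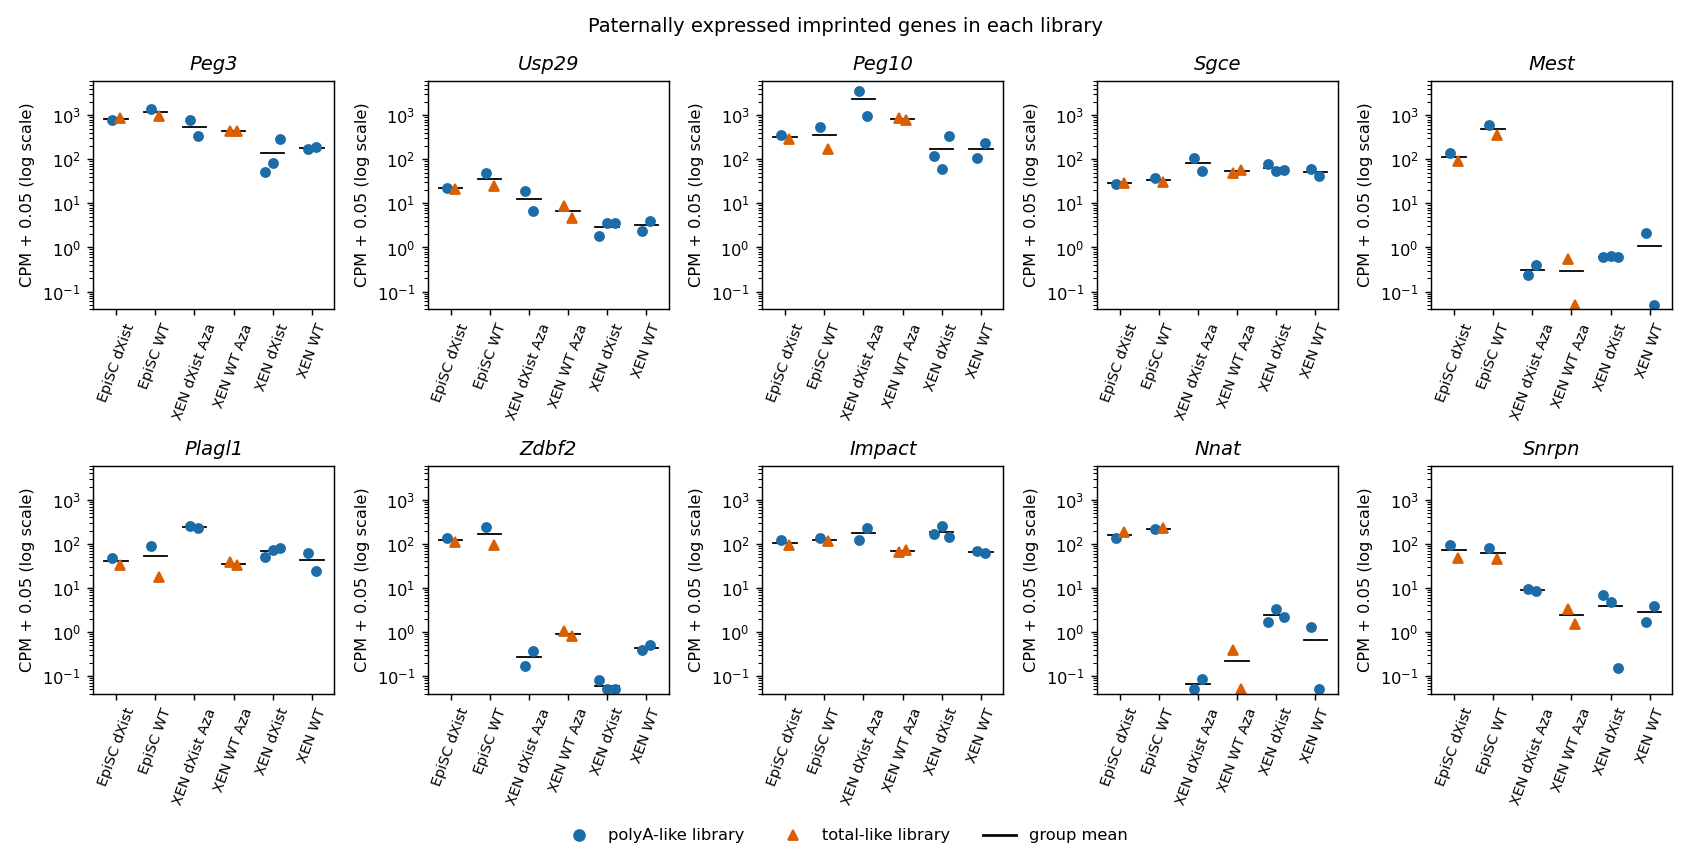
CPM plus 0.05 on a log axis for each of the 10 genes in each of the 13 libraries, by group; circles are polyA-like libraries, triangles total-like libraries and bars group means. Mest, Nnat, Zdbf2 and Snrpn lie at 45.2 CPM or above in every EpiSC library and at 9.31 CPM or below in every XEN library, while Impact and Sgce stay within a narrow band.

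EpiSC held far more RNA of 4 members than XEN cells. Zdbf2 had 134 and 111 CPM in EpiSC dXist and 245 and 92 CPM in EpiSC WT, against 0.0321, 0 and 0 CPM in XEN dXist and 0.335 and 0.446 CPM in XEN WT. Nnat had 136 and 185 CPM in EpiSC dXist and 219 and 225 CPM in EpiSC WT, against 1.60, 3.36 and 2.17 CPM in XEN dXist and 1.24 and 0 CPM in XEN WT. These 2 genes stood at 92 CPM or above in EpiSC and at 3.36 CPM or below in untreated XEN cells. Mest had 136 and 90.6 CPM in EpiSC dXist and 599 and 355 CPM in EpiSC WT, against 0.545, 0.598 and 0.543 CPM in XEN dXist and 2.04 and 0 CPM in XEN WT. Snrpn had 94.0 and 49.1 CPM in EpiSC dXist and 81.5 and 45.2 CPM in EpiSC WT, against 6.96, 4.67 and 0.102 CPM in XEN dXist and 1.64 and 3.83 CPM in XEN WT. For all 4 genes every EpiSC library lay above every XEN library, and XEN dXist library 3 stood apart with almost no Snrpn.

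The zinc finger gene Peg3 and its neighbour Usp29 were also higher in EpiSC, by less. Peg3 had 765 and 862 CPM in EpiSC dXist and 1410 and 989 CPM in EpiSC WT, against 51.4, 84.6 and 283 CPM in XEN dXist and 173 and 195 CPM in XEN WT. Usp29 had 22.5 and 21.1 CPM in EpiSC dXist and 48.5 and 24.2 CPM in EpiSC WT, against 1.73, 3.48 and 3.46 CPM in XEN dXist and 2.31 and 3.95 CPM in XEN WT. The untreated cell types did not overlap for either gene, and within a genotype 9 members did not overlap between EpiSC dXist and XEN dXist, beside 68.7% of all genes, and 8 between EpiSC WT and XEN WT, beside 66.4%. Peg10, the placental gene, overlapped between untreated cell types, with 352 and 297 CPM in EpiSC dXist and 537 and 176 CPM in EpiSC WT, against 119, 59.2 and 331 CPM in XEN dXist and 110 and 234 CPM in XEN WT. Sgce went the other way, with 27.3 and 29.3 CPM in EpiSC dXist and 36.8 and 31.0 CPM in EpiSC WT, against 76.5, 54.9 and 57.7 CPM in XEN dXist and 60.8 and 42.0 CPM in XEN WT. Peg10 was thus not ordered by cell type, while Sgce lay lower in every EpiSC library than in every untreated XEN library. Plagl1 had 48.5 and 32.6 CPM in EpiSC dXist and 90.2 and 17.9 CPM in EpiSC WT, against 51.5, 74.3 and 80 CPM in XEN dXist and 62.4 and 23.8 CPM in XEN WT. Impact had 120 and 93.4 CPM in EpiSC dXist and 135 and 114 CPM in EpiSC WT, against 171, 256 and 142 CPM in XEN dXist and 70.8 and 62.5 CPM in XEN WT. For Impact the EpiSC libraries lay below the XEN libraries in dXist cells and above them in WT cells.

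In edgeR's quasi-likelihood test on the 9 untreated libraries, 6 of the 10 members rose in EpiSC WT against XEN WT and 0 fell. Of all 19733 genes tested, 30.8% were called at an adjusted p under 0.05, 16.8% as higher. The members' median log2 fold change was 3.12, beside 0.13 over all genes. The 6 were Mest (log2 fold change 8.86, SE 1.38, adjusted p = 0.00238), Zdbf2 (8.73, SE 0.67, 8.63e-05), Nnat (8.48, SE 1.24, 0.00168), Snrpn (4.53, SE 1.35, 0.0344), Usp29 (3.53, SE 0.55, 0.00183) and Peg3 (2.7, SE 0.71, 0.0191). Impact (0.90, adjusted p = 0.0724) and Sgce (-0.60, adjusted p = 0.153) were not called by edgeR, nor were Peg10 and Plagl1. Impact was called in 3 of 11 alternatives, DESeq2 among them. In EpiSC dXist against XEN dXist the same 6 genes rose and Sgce fell by 1.13 on the log2 scale (SE 0.29, adjusted p = 0.0143), beside 38.4% of all genes called, 21.5% as higher and 16.9% as lower. There the log2 fold change was 7.68 for Mest, 6.10 for Nnat, 4.22 for Snrpn, 2.94 for Usp29 and 2.57 for Peg3, with adjusted p-values between 0.00125 and 0.0193. For Zdbf2 the 3 XEN dXist libraries held 1 read in all, against 7348 in EpiSC dXist, a ratio of 11000 with an exact 95% counting interval of 1970 to 433000. Impact was 0.80 lower on the log2 scale (adjusted p = 0.0716) and was not called.

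**Figure D2:**
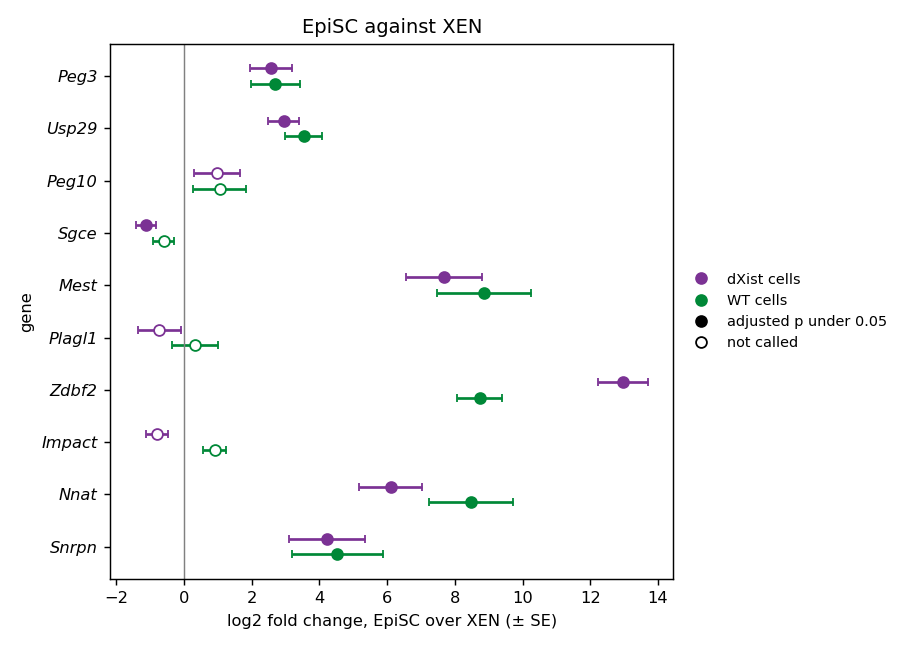
Log2 fold change of EpiSC over XEN for each gene with its standard error, in dXist cells (purple) and WT cells (green); filled points have an adjusted p under 0.05. Mest, Zdbf2 and Nnat lie at 6.10 or above in both genotypes, and Sgce is the sole filled point below 0.

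These calls differed in how far they rested on single libraries, and with any 1 library left out 3045 to 4864 genes were called in WT cells and 3412 to 8458 in dXist cells. Usp29, Mest, Zdbf2 and Nnat were called in both genotypes under each of the 11 and 12 alternatives run. Peg3 was not called in WT cells without XEN WT library 1 (adjusted p = 0.112), XEN WT library 2 (0.0873) or EpiSC WT library 1 (0.0845), nor from the polyA-like libraries alone in either genotype (0.0626 in WT and 0.0697 in dXist). Snrpn in WT cells was not called without any 1 of the 4 libraries (adjusted p = 0.0639 to 0.168), nor from the polyA-like libraries alone (0.0554). In dXist cells it was not called without XEN dXist library 2 (0.0544), EpiSC dXist library 1 (0.1) or EpiSC dXist library 2 (0.0644). Sgce in dXist cells was not called without XEN dXist library 1 (0.0511), EpiSC dXist library 1 (0.0985) or EpiSC dXist library 2 (0.0949), nor from the polyA-like libraries alone (0.223), nor in the fit of 13 libraries with library type as a term (0.0698). The log2 fold changes of Mest and Nnat in WT cells rest on XEN WT library 1, since library 2 held 0 reads of both. Neural markers summed to 319 to 357 CPM in EpiSC dXist and 429 to 658 CPM in EpiSC WT, against 11.4 to 25.6 CPM in XEN dXist and 18.7 to 36.5 CPM in XEN WT, and fibroblast markers to 165 to 227 CPM and 670 to 790 CPM in EpiSC dXist and WT, against 2.06 to 3.33 CPM and 16.5 to 18.2 CPM in XEN dXist and WT. Nes alone gave 276 to 570 CPM of the neural sums over the EpiSC libraries. The part of these markers in the results was not tested.

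Ordered by TPM, a level that divides reads by exon length, the genes ranked differently in each cell type. In EpiSC dXist the order by mean was Nnat (289 to 323 TPM), Peg3, Peg10, Snrpn, Mest, Impact, Zdbf2, Plagl1, Sgce and Usp29 (3.34 to 5.42 TPM). Peg3 to Impact formed a run in which each range overlapped the next. In EpiSC WT it began with Mest (251 to 554 TPM), Nnat (343 to 436 TPM) and Peg3 (207 to 387 TPM), ended with Usp29 (3.74 to 9.78 TPM), and every neighbour overlapped. In XEN dXist, Impact (92.0 to 170 TPM), Peg10 (30.3 to 165 TPM), Peg3 and Plagl1 overlapped in turn at the top, and Zdbf2 (0 to 0.00764 TPM) was last. In XEN WT, Peg10 (57.6 to 113 TPM) led, Peg3 (45.3 to 47.0 TPM) and Impact (39.2 to 48.0 TPM) followed with overlapping ranges, and Zdbf2 (0.0920 to 0.113 TPM) was again last. Under Aza, Peg10 was first without overlap in both genotypes, at 550 and 1450 TPM in XEN dXist Aza and 270 to 313 TPM in XEN WT Aza.

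Deletion of the paternal Xist allele in XEN cells went with more Impact RNA in every library, though no member passed the test in edgeR. Impact, the Gcn2 inhibitor, had 171, 256 and 142 CPM in XEN dXist, against 70.8 and 62.5 CPM in XEN WT. Zdbf2 was near 0 in both groups, with 1 read in the 3 XEN dXist libraries and 24 reads in the 2 XEN WT libraries, a 34.3-fold lower level in XEN dXist with an exact 95% counting interval of 5.59 to 1410. Nnat, at 1.60 to 3.36 CPM in XEN dXist and 0 to 1.24 CPM in XEN WT, completed the 3 members whose libraries did not overlap, beside 28.3% of all genes. In edgeR's test 0 of the 10 members were called and 2, Zdbf2 and Impact, had an unadjusted p under 0.05, beside 4 of 18393 genes called (0.0217%) and 1973 with an unadjusted p under 0.05. Impact had a log2 fold change of 1.5 (SE 0.40, adjusted p = 0.31) and Zdbf2 of -4.59 (SE 1.19, adjusted p = 0.30). DESeq2 called 506 genes (2.75%), Impact among them (1.52, adjusted p = 0.015), and over all alternatives the adjusted p of Impact ran between 0.015 and 0.753. The members' median log2 fold change was 0.13, beside 0.00 over all genes.

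XEN dXist library 3 differed from libraries 1 and 2 in several members. It held 331 CPM of Peg10 and 283 CPM of Peg3, against 59.2 to 119 CPM and 51.4 to 84.6 CPM in the other two, and 0.102 CPM of Snrpn, against 4.67 and 6.96 CPM. Without this library 510 genes were called between XEN dXist and XEN WT, and still 0 members. Whether the effect of the deletion differed between cell types was tested directly on the 9 untreated libraries. By edgeR the difference was called for 0 members, with 2 at an unadjusted p under 0.05, beside 2 of all genes called (0.0101%). The difference, EpiSC minus XEN, was 4.23 for Zdbf2 (SE 1.05, adjusted p = 0.272), -1.70 for Impact (SE 0.47, 0.318) and -2.38 for Nnat (SE 1.29, 0.541), all on the log2 scale. The Nnat value rests on XEN WT library 1, since library 2 held 0 reads, and was -9.55 without library 1 and -1.43 without library 2. The Zdbf2 value was 6.09 without XEN dXist library 1 and 5.06 without EpiSC WT library 1. Without XEN dXist library 3 edgeR called 670 genes and 0 members. DESeq2 called this difference for 447 genes (2.27%), among them Zdbf2 (4.55, 0.0479) and Impact (-1.72, 0.0314).

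In EpiSC the Xist deletion went with less Mest RNA. Mest had 136 and 90.6 CPM in EpiSC dXist, against 599 and 355 CPM in EpiSC WT. Each group holds 1 polyA-like and 1 total-like library, and dXist was lower in both kinds, by 2.14 on the log2 scale in the polyA-like pair and by 1.97 in the total-like pair. In edgeR's test on the 4 EpiSC libraries 0 of 17132 genes (0%) were called, with 1741 at an unadjusted p under 0.05, and of the members Mest alone had an unadjusted p under that limit, with a log2 fold change of -2.05 (SE 0.42, adjusted p = 0.239). With library type as a term, which leaves 1 residual degree of freedom and is the same fit as a replicate block here, 1960 genes (11.4%) were called, 6.53% as lower. Mest was the sole member among them (-2.03, SE 0.36, adjusted p = 9.37e-07). DESeq2 called 492 genes (2.87%) and of the members again Mest alone (-2.06, adjusted p = 6.93e-05). Without any 1 of the 4 libraries the edgeR adjusted p of Mest was 0.0569 to 0.864, with 0 to 174 genes called.

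Beside the lower Mest level, fibroblast markers summed to 227 and 165 CPM in EpiSC dXist, against 790 and 670 CPM in EpiSC WT, and all 8 had a negative log2 fold change. The collagen gene Col3a1 averaged 5.20 ± 0.592 CPM in EpiSC dXist and 142 ± 9.05 CPM in EpiSC WT (SD, n = 2 each), and Lum was at 0 in EpiSC dXist. All 7 tested neural markers also had a negative log2 fold change (median -0.63), with sums of 319 to 357 CPM in EpiSC dXist, against 429 to 658 CPM in EpiSC WT. The part of these markers in the Mest result was not tested. The overlapping gene Copg2 averaged 44.1 ± 7.90 CPM in EpiSC dXist and 46.0 ± 0.496 CPM in EpiSC WT. The other 9 members were not called in either fit. With Mest, 5 members did not overlap between EpiSC dXist and EpiSC WT, beside 42.7% of all genes. Peg10, Plagl1 and Zdbf2 were lower in dXist in the polyA-like pair and higher in the total-like pair, and Peg3, Usp29, Sgce, Impact and Nnat were lower in both pairs, by 0.89 and 0.20 for Peg3 and by 1.11 and 0.20 for Usp29.

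**Figure D3:**
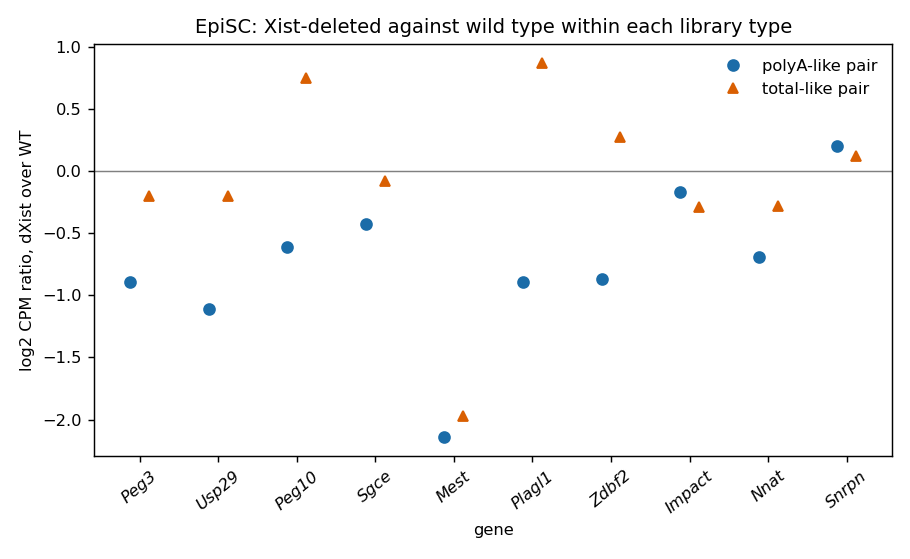
Log2 ratio of CPM, EpiSC dXist over EpiSC WT, for each gene within the polyA-like pair of libraries (circles) and within the total-like pair (triangles). Mest lies at -2.14 and -1.97, while Peg10, Plagl1 and Zdbf2 change side between pairs.

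Both Aza-treated XEN dXist libraries held more RNA of Peg10, Plagl1, Peg3, Usp29, Zdbf2 and Snrpn than all 3 untreated XEN dXist libraries, though no member passed the test in edgeR. Peg10 had 3630 and 974 CPM in XEN dXist Aza, against 119, 59.2 and 331 CPM in XEN dXist. Plagl1, the growth-restraining zinc finger gene, had 255 and 224 CPM in XEN dXist Aza, against 51.5, 74.3 and 80.0 CPM in XEN dXist. Neither gene overlapped between the groups, and treated library 1, with the lower Xist level, held the most Peg10. Peg3 had 778 and 333 CPM in XEN dXist Aza, against 51.4, 84.6 and 283 CPM in XEN dXist. Usp29 had 19 and 6.56 CPM in XEN dXist Aza, against 1.73, 3.48 and 3.46 CPM in XEN dXist. For these head-to-head neighbours the treated library 2 was closer to the untreated ones than library 1. Zdbf2 remained near the floor, with 11 reads in the 2 treated libraries and 1 in the 3 untreated ones, a ratio of 21.3 with an exact 95% counting interval of 3.10 to 917.

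Nnat was lower in XEN dXist Aza, with 0 and 0.0347 CPM, against 1.60, 3.36 and 2.17 CPM in XEN dXist. That is 1 read against 204, a 105-fold lower level with an exact 95% counting interval of 18.7 to 4180. Mest was also below every untreated library, at 0.184 and 0.347 CPM in XEN dXist Aza and 0.543 to 0.598 CPM in XEN dXist. Snrpn stood at 9.31 and 8.29 CPM in XEN dXist Aza and 0.102 to 6.96 CPM in XEN dXist. Sgce (108 and 54.4 CPM in XEN dXist Aza, against 76.5, 54.9 and 57.7 CPM in XEN dXist) and Impact (125 and 229 CPM, against 171, 256 and 142 CPM) overlapped between the groups. Thus 8 of 10 members did not overlap, 6 of them higher, beside 42.2% of all genes, 23.9% higher.

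In edgeR's test on the 9 XEN libraries 0 members were called in this comparison and 6 had an unadjusted p under 0.05, beside 14 of 18393 genes called (0.0761%) and 4921 at an unadjusted p under 0.05. The members' median log2 fold change was 1.34, beside -0.03 over all genes. Peg10 had a log2 fold change of 3.58 (SE 0.76, adjusted p = 0.0656), Plagl1 of 1.65 (SE 0.40, 0.0752) and Nnat of -6.61 (SE 2.04, 0.0969). Usp29 followed at 1.97 (SE 0.63, 0.105), Zdbf2 at 3.67 (SE 1.21, 0.111) and Peg3 at 1.81 (SE 0.65, 0.124). DESeq2 called 2905 genes (15.8%), and among the members Peg10 (adjusted p = 4.59e-05), Plagl1 (0.00401), Nnat (0.00957), Usp29 (0.0128) and Peg3 (0.03), in the same directions. The call depended on single libraries. XEN dXist Aza holds 2 libraries, so a fit without either keeps 1 treated library, and no calls from such fits are given. Without XEN dXist library 3 edgeR called 414 genes and the members Peg3 and Peg10. With a block for the replicate number over the 9 XEN libraries, edgeR called 131 genes and Peg10 (log2 fold change 4.48, adjusted p = 0.0432). Treated and untreated dXist libraries of a number share a name, while the WT libraries share only the number, so the block is not a pairing by name. The sizes moved too: without XEN dXist Aza library 1 the log2 fold change was 2.38 for Peg10, 1.04 for Usp29 and 1.11 for Peg3, and without XEN dXist library 3 it was 4.55, 2.14 and 2.88. That of Zdbf2 was 2.73 without XEN dXist Aza library 2 and 5.24 without XEN dXist library 1, and that of Nnat -8.77 without XEN dXist Aza library 2. That of Plagl1 stayed between 1.47 and 1.79 with any 1 library left out. Over all alternatives the adjusted p of Peg10 ran between 8.36e-13 and 0.244. Beside these values, 7 of 8 primitive endoderm markers had a negative log2 fold change (median -0.61). Neural markers summed to 31.8 to 52.1 CPM in XEN dXist Aza, against 11.4 to 25.6 CPM in XEN dXist, and fibroblast markers to 6.97 to 7.60 CPM in XEN dXist Aza, against 2.06 to 3.33 CPM in XEN dXist. These sums rest largely on single genes. Nes gave 42.2 and 27.5 CPM of the treated neural sums. Pdgfrb gave 5.45 CPM of the fibroblast sum in treated library 1, and Col1a2 4.61 CPM in treated library 2. The part of these markers in the results was not tested.

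**Figure D4:**
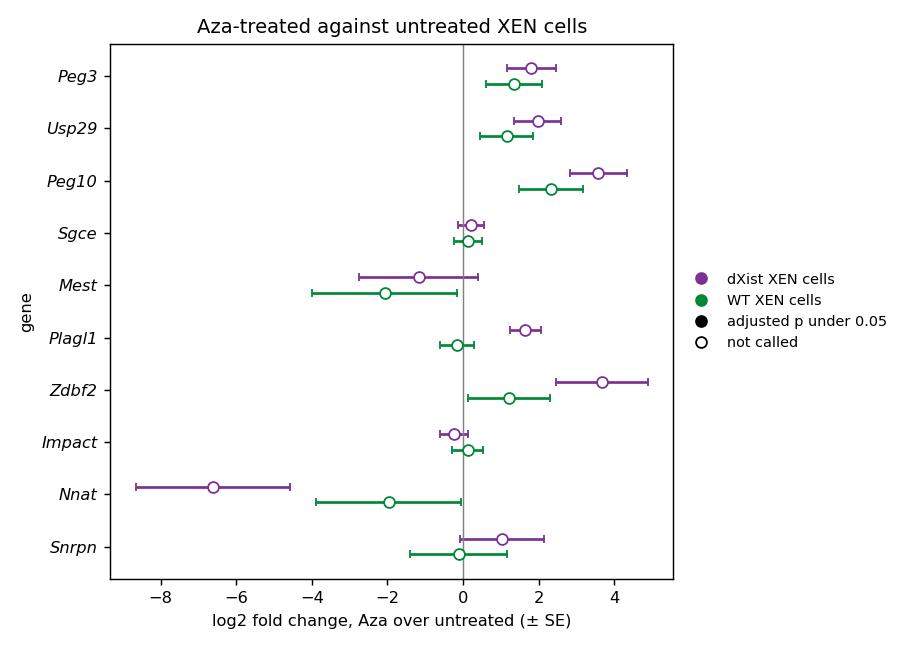
Log2 fold change of Aza-treated over untreated XEN cells for each gene with its standard error, in dXist cells (purple) and WT cells (green); every point is open because no adjusted p was under 0.05. Peg10 has the highest positive value in WT cells at 2.33, and Nnat the lowest in dXist cells at -6.61.

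In XEN WT cells the same drug went with more Peg10 and Peg3 RNA in both treated libraries. Peg10 had 867 and 775 CPM in XEN WT Aza, against 110 and 234 CPM in XEN WT. Peg3 had 442 and 447 CPM in XEN WT Aza, against 173 and 195 CPM in XEN WT. Usp29 had 8.47 and 4.73 CPM in XEN WT Aza, against 2.31 and 3.95 CPM in XEN WT. These 3 genes and Zdbf2 (0.996 and 0.753 CPM in XEN WT Aza, against 0.335 and 0.446 CPM in XEN WT) were the 4 members whose libraries did not overlap, beside 59.8% of all genes. Plagl1 (38.2 and 33.4 CPM in XEN WT Aza, against 62.4 and 23.8 CPM in XEN WT), Impact (64.4 and 72.4 CPM, against 70.8 and 62.5 CPM) and Sgce (50.2 and 55.9 CPM, against 60.8 and 42.0 CPM) overlapped. Snrpn had 3.32 and 1.51 CPM in XEN WT Aza, against 1.64 and 3.83 CPM in XEN WT. Mest had 3 reads in XEN WT Aza, against 61 in XEN WT, a 5.09-fold lower level with an exact 95% counting interval of 1.66 to 25.4. Nnat had 2 reads in XEN WT Aza, against 37 in XEN WT, a 4.63-fold lower level with an interval of 1.19 to 39.7. For both genes XEN WT library 2 held 0 reads, so the groups overlapped.

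Here edgeR called 0 members, with Peg10 alone at an unadjusted p under 0.05, beside 107 of 18393 genes called (0.582%) and 2279 at an unadjusted p under 0.05, and DESeq2 called 0 members beside 646 genes (3.51%). Peg10 had a log2 fold change of 2.33 (SE 0.85, adjusted p = 0.314, and 0.000719 to 1 over the alternatives) and Peg3 of 1.35 (SE 0.73, adjusted p = 0.492, and 0.025 to 1). Both XEN WT Aza libraries are total-like and both XEN WT libraries polyA-like, so in these cells the drug and the library type cannot be told apart. All 8 primitive endoderm markers had a negative log2 fold change (median -0.62). Neural markers summed to 51.6 to 55.6 CPM in XEN WT Aza, against 18.7 to 36.5 CPM in XEN WT, and fibroblast markers to 13.2 to 13.5 CPM in XEN WT Aza, against 16.5 to 18.2 CPM in XEN WT. Nes alone gave 42.7 and 40.4 CPM of the treated neural sums, and Pdgfrb 11.5 and 11.7 CPM of the treated fibroblast sums. The part of these markers was not tested. The treated pair also differed from each other far less than any other pair of replicates, with a chi-square of 3.57 per degree of freedom over genes, against 67.4 to 469 for the other pairs. This is above sampling noise, so they were kept as 2 libraries. Whether Aza acted differently by genotype was tested as an interaction on the 9 XEN libraries. It was called for 0 members by edgeR, beside 45 genes (0.245%), and for 0 by DESeq2, beside 218 genes (1.19%). A fit without XEN dXist Aza library 2 keeps 1 treated dXist library, so no calls from it are given. Plagl1 alone had an unadjusted p under 0.05, with a difference of 1.82 on the log2 scale, dXist minus WT (SE 0.61, adjusted p = 0.562). This difference was 0.62 to 2.39 over the alternatives, with 0.99 without XEN WT library 1, 2.39 without XEN WT library 2 and 0.62 in the fit of 13 libraries with library type as a term.

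Within the Sgce and Peg10 pair the ratio of reads followed Peg10. Peg10 over Sgce was 33.6 and 17.9 in XEN dXist Aza, against 1.56, 1.08 and 5.73 in XEN dXist, and 17.3 and 13.8 in XEN WT Aza, against 1.82 and 5.58 in XEN WT. All 4 treated libraries were above all 5 untreated XEN libraries. Both XEN WT Aza libraries are total-like and all 5 untreated XEN libraries polyA-like, so in WT cells drug and library type cannot be told apart. The ratio was 12.9 and 10.1 in EpiSC dXist, against 14.6 and 5.68 in EpiSC WT, which overlapped. For Peg3 over Usp29 the ratio was 41.0 and 50.8 in XEN dXist Aza, against 29.7, 24.3 and 81.6 in XEN dXist, and 52.2 and 94.5 in XEN WT Aza, against 75.0 and 49.3 in XEN WT. Treated and untreated libraries overlapped in this pair. The ratios are of raw reads within a library and were not tested.

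**Figure D5:**
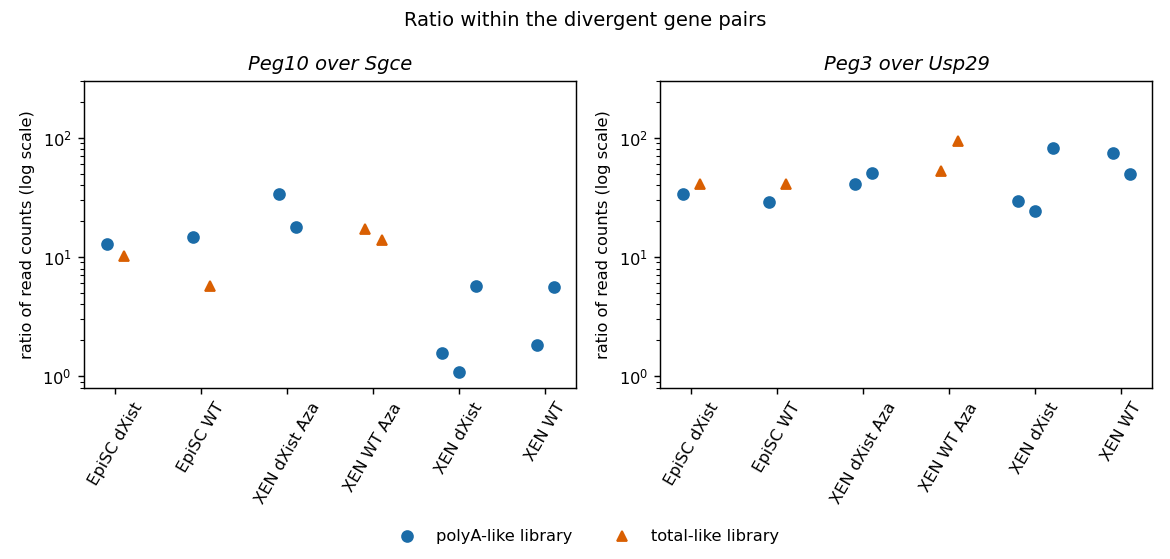
Ratio of read counts, on a log axis, of Peg10 over Sgce (left) and Peg3 over Usp29 (right) in each library by group; circles are polyA-like and triangles total-like libraries. The 4 Aza-treated XEN libraries lie at 13.8 or above for Peg10 over Sgce and the 5 untreated XEN libraries at 5.73 or below, while for Peg3 over Usp29 the treated and untreated XEN libraries overlap. Both XEN WT Aza libraries are total-like and the untreated XEN libraries polyA-like.

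Other genes of the imprinted domains were counted by lists. The lists share genes, so their counts are not separate. Zim1, Asb4, Calcr, Ppp1r9a and Ube3a are among those counted both as neighbours and as maternally expressed. Magel2, Ndn, Peg12 and Snhg14 are among those counted both as neighbours and as other paternally expressed genes. Of 25 tested neighbours in the members' domains, 11 rose and 0 fell in EpiSC WT against XEN WT, beside 16.8% of all genes higher. In EpiSC dXist against XEN dXist 10 rose and 1 fell, beside 21.5% of all genes higher and 16.9% lower. The neighbours' median log2 fold changes were 1.30 and 0.54, beside 0.129 and 0.085 over all genes. Among them were Adam23, a neighbour of Zdbf2 (67.3 ± 9.69 CPM in EpiSC dXist and 0 in XEN dXist; 45.1 ± 7.42 CPM in EpiSC WT and 0 in XEN WT), and Ppp1r9a, the neurabin gene near Peg10 (65.4 ± 12 CPM in EpiSC WT and 11.3 ± 1.53 CPM in XEN WT). Of the 21 neighbours tested in XEN cells edgeR called 0 after the Xist deletion (5 at an unadjusted p under 0.05, 0 by DESeq2), 0 under Aza in WT cells (4, and 0 by DESeq2) and 0 under Aza in dXist cells (4, and 3 by DESeq2, namely Sf3b5, Ube3a and Zim1). In that order DESeq2 called 2.75%, 3.51% and 15.8% of all genes. By edgeR 1973, 2279 and 4921 of all 18393 genes had an unadjusted p under 0.05. Of 21 other paternally expressed genes, 9 rose and 3 fell in EpiSC WT against XEN WT, and 9 rose and 5 fell in EpiSC dXist against XEN dXist. The amino acid transporter gene Slc38a4 rose (200 ± 74.7 CPM in EpiSC WT and 0.180 ± 0.0294 CPM in XEN WT) and the Polycomb-related gene Sfmbt2 fell (22.8 ± 6.45 CPM in EpiSC WT and 197 ± 4.79 CPM in XEN WT). Of all genes 30.8% were called in WT cells, 16.8% as higher, and in dXist cells 21.5% were called higher and 16.9% lower.

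Of 26 maternally expressed genes, 13 rose and 1 fell in EpiSC WT against XEN WT, with a median log2 fold change of 3.13, and 17 rose and 1 fell in EpiSC dXist against XEN dXist, with a median of 2.92. Of all genes 30.8% were called in WT cells, 16.8% as higher, and 38.4% in dXist cells, 21.5% as higher. The medians over all genes were 0.129 and 0.085. The RNA gene Meg3 averaged 829 ± 341 CPM in EpiSC WT and 0.0670 ± 0.0947 CPM in XEN WT (SD, n = 2 each). In XEN cells edgeR called 1 of the 19 maternally expressed genes tested in each comparison, and DESeq2 called 2 after the deletion, 3 under Aza in WT cells and 6 under Aza in dXist cells. In that order edgeR called 0.0217%, 0.582% and 0.0761% of all genes, and DESeq2 2.75%, 3.51% and 15.8%. The signalling adaptor gene Grb10 averaged 0.137 ± 0.0297 CPM in XEN dXist (n = 3) and 74.2 ± 13.4 CPM in XEN WT (n = 2; adjusted p = 4.55e-05), and 1.66 ± 0.430 CPM in XEN dXist Aza (n = 2; adjusted p = 0.0498 against XEN dXist). Under Aza in WT cells, Kcnq1ot1, an antisense RNA expressed from the paternal copy, averaged 128 ± 52.6 CPM, against 7.13 ± 3.59 CPM in XEN WT (adjusted p = 0.0488). The maternally expressed RNA gene Rian averaged 8.72 ± 1.06 CPM in XEN WT Aza, against 0.0335 ± 0.0474 CPM in XEN WT (adjusted p = 0.0253), with treatment and library type again not separable. In dXist cells, where all 5 libraries are polyA-like, neither was called by edgeR and both were called by DESeq2. Kcnq1ot1 averaged 137 ± 128 CPM in XEN dXist Aza and 7.26 ± 1.95 CPM in XEN dXist (log2 fold change 4.05, SE 0.65, edgeR adjusted p = 0.0584), and Rian 2.85 ± 0.481 CPM in XEN dXist Aza and 0.0351 ± 0.0340 CPM in XEN dXist (6.01, SE 1.02, 0.0593).

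Of 18 tested factors that set, keep or remove methylation, 3 rose and 1 fell in EpiSC WT against XEN WT, beside 30.8% of all genes called. In EpiSC dXist against XEN dXist 7 rose and 2 fell, beside 38.4% of all genes called. The methyltransferase gene Dnmt3a averaged 298 ± 73.6 CPM in EpiSC WT and 66.8 ± 6.09 CPM in XEN WT, and the oxidase gene Tet1 186 ± 40.6 CPM and 31.1 ± 3.78 CPM. Dnmt3l, a cofactor of the de novo methyltransferases, fell, with 0.202 ± 0.125 CPM in EpiSC WT and 10.1 ± 5.34 CPM in XEN WT. In XEN cells edgeR called 0 of the 18 after the Xist deletion (0 at an unadjusted p under 0.05, 0 by DESeq2), 0 under Aza in WT cells (1, and 1 by DESeq2) and 0 under Aza in dXist cells (9, and 8 by DESeq2). In that order DESeq2 called 2.75%, 3.51% and 15.8% of all genes. By edgeR 1973, 2279 and 4921 of all 18393 genes had an unadjusted p under 0.05. Of 8 tested family relatives and partners, 2 rose and 0 fell in EpiSC WT against XEN WT, beside 30.8% of all genes called. In EpiSC dXist against XEN dXist 2 rose and 2 fell, beside 38.4%. Plagl2, the relative of Plagl1, fell in the dXist comparison (13 ± 1.73 CPM in EpiSC dXist, n = 2, and 40.5 ± 3.58 CPM in XEN dXist, n = 3; adjusted p = 0.00411).

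Genes most like each member were ranked by Pearson correlation of log2(CPM + 0.5) over the 13 libraries, among genes of at least 5 CPM on average. The closest were Zcchc3 for Zdbf2 (0.997), Igfbp3 for Mest (0.992), 6330403K07Rik for Nnat (0.988), Zic2 for Snrpn (0.970) and Lrriq1 for Usp29 (0.969). The others were Trim6 for Peg3 (0.967), Nkiras1 for Sgce (0.965), Nfat5 for Plagl1 (0.952), Mospd1 for Impact (0.944) and Bbx for Peg10 (0.924). The points share their libraries and the split between cell types. Over the 9 XEN libraries alone the correlation was 0.590 for Mest with Igfbp3, 0.863 for Nnat with 6330403K07Rik, 0.871 for Zdbf2 with Zcchc3 and 0.952 for Peg10 with Bbx.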

How the data were processed

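Bulk RNA-seq covered 13 mouse libraries, placed in groups by their labels. The deposited table holds raw counts of reads per gene made by the authors. Per the submitters' processing notes the build was GRCm38 (mm10) and the tools were featureCounts 2.0.1, STAR 2.7.9a and FastQC. The strand setting, the treatment of multi-mapped reads and the annotation used for counting were not given in the sources used here. Per the labels' protocols, libraries were made with NEBNext Ultra or TruSeq stranded kits, and no label ties a kit to a library.

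From these counts, GENCODE vM21 matched 38240 of 38377 identifiers (99.64%). In R 4.3.3, edgeR 4.0.16 was used with TMM scaling, filterByExpr by group, robust quasi-likelihood F tests and Benjamini-Hochberg adjustment over all genes tested, and genes were called at an adjusted p under 0.05. The 9 XEN libraries shared a fit (5 residual degrees of freedom), the 9 untreated libraries another (5), and the 4 EpiSC libraries the last (2). All 10 genes passed the filter in each comparison. An SE was obtained by dividing the size of the log2 fold change by the root of the F statistic. CPM values are TMM-scaled, and TPM values use exon length. Counting intervals are exact, at 95%, and cover counting error only. DESeq2 1.42.0 was the alternative tool. The edgeR fit was run on simulated counts for XEN dXist against XEN WT, EpiSC WT against XEN WT and EpiSC dXist against EpiSC WT. The other comparisons, the alternative fits, DESeq2 and the counting intervals were not simulated. Log2 fold changes are printed for the gene and comparison pairs with an unadjusted p under 0.1 (31 of 80), together with the named list genes.

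The genes, lists and tests were chosen with earlier results of these data known. The 10 genes were named in every comparison, from each list up to 4 called genes per comparison with the smallest adjusted p could be named, and for each gene the most similar 3. Gm38393, Copg2 and Zim3 were named for exon overlap, and the list genes called by DESeq2, Col3a1 and Lum after their values were seen. Apeg3, Snurf, Ins2 and Gcn1 were not analysed here. Replicates were not stated to be separate cultures or clones, so p-values reflect the variation among these libraries, which may be technical. EpiSC libraries with the same number deviated together (correlation 0.78) and share a library type; for the other groups the correlations were -0.16 to 0.17. XEN dXist libraries 1 and 2 share their names with the treated libraries of that number (correlations -0.07 and 0.1), and whether a name marks a clone or culture is not stated.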

Additional observations from a re-analysis of the deposited data

How the results depend on the processing

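Alternatives were RLE scaling, DESeq2, no filter on low counts, a replicate block, 13 libraries with library type as a term, only the groups compared, and leaving out each replicate. Fits on the polyA-like libraries alone and with library type in the EpiSC fit were chosen after seeing the data. Between cell types the number of members called stayed within 1.5 times of the 6 in WT cells and the 7 in dXist cells, at 4 to 5 and 5 to 9 with a replicate left out, and at 4 and 5 from the polyA-like libraries. After the Xist deletion in XEN cells 0 members were called, but 1 (Impact) by DESeq2 and 1 without the filter. In WT cells under Aza 0 were called, but 1 (Peg10) without the filter and 2 (Peg3, Peg10) from only the groups compared. In dXist cells under Aza 0 were called, but 5 by DESeq2, 4 without the filter, 1 (Peg10) with the replicate block and 5 with library type as a term over 13 libraries. Peg3 and Peg10 were called there with XEN dXist library 3 left out. In EpiSC after the deletion 0 were called, but 1 (Mest) by DESeq2, 1 without the filter and 1 with the replicate block. For the difference of the deletion between cell types 0 were called, but 2 by DESeq2 and 2 (Zdbf2, Nnat) without the filter. With a replicate left out, 0 to 0 were called in the remaining comparisons. DESeq2 called 2.75% of all genes after the deletion in XEN cells and 15.8% under Aza in dXist cells. It called 2.87% in EpiSC after the deletion and 2.27% for the difference between cell types. For the fits without the filter, with library type over 13 libraries, from only the groups compared and from the polyA-like libraries, the shares of all genes are not printed. Member counts from those fits are therefore not read as results about the members. The cause of these shifts was not tested. The replicate block changed 3 other calls: it added Impact in WT cells (adjusted p = 0.046) and Peg10 and Impact in dXist cells (0.0319 for Impact) between cell types, and XEN dXist libraries share a name with their treated partners, the other XEN samples only a number. No printed log2 fold change of a member reversed, while 29 of the other 49 pairs changed sign under at least 1 alternative. With the block edgeR called 368 genes after the deletion in XEN cells, 131 under Aza in dXist cells and 743 for the difference of the deletion between cell types, against 4, 14 and 2 without it. The polyA-like fit gave no value for Aza in WT cells, whose treated libraries are all total-like. In the shallowest library 3 counts were worth 0.498 CPM, so levels under that rest on few reads there.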
